A study of Triticum aestivum with 24 samples.

Results

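The 200 probe sets described here kept the same sign of the Molly minus Newton difference in uninfested leaf sheaths and at 6, 12 and 24 h after Hessian fly eggs hatched. They were taken from 61179 probe sets of an Affymetrix wheat array. Each signal under 85 was raised to 85, the mean log2 signal was taken per group, and the 200 probe sets with the highest smallest absolute difference over the 4 conditions were kept. Of these, 79 were higher in Molly and 121 were higher in Newton. The probe sets were chosen by the measured differences between the lines, so these are given as a description and were not tested. The name "constant" held for the sign and not for the size: the 4 absolute log2 differences of a probe set spanned a median range of 0.91, with a range under 0.5 in 42 probe sets and of 1 or more in 95.

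Molly is a wheat line with the resistance gene H13, on which the larvae meet an incompatible interaction, and Newton is a susceptible line with a compatible interaction. Both were grown as seedlings and infested with eggs at the two-leaf stage, and RNA came from the piece of the second leaf sheath on which larvae feed. Each line was sampled infested at 6, 12 and 24 h and uninfested at 12 h, with 3 arrays in each of the 8 groups, 24 arrays in all. The uninfested arrays serve all 3 times, so a response at 6 or 24 h also holds plant age and time of day. Each line is 1 genotype and H13 came with the rest of Molly's genome, so the gene and the line cannot be told apart. Infested replicates are labelled as biological and uninfested ones carry a number only, so whether the latter came from separate plants is not known. The spread behind each p-value was pooled over all 24 arrays and may be technical in part.

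Hessian fly larvae settle at the base of a leaf sheath and inject saliva. In a compatible interaction the plant forms nutritive tissue on which the larva feeds, and in an incompatible one the larva dies without growth. Molly is known as a backcross derivative of Newton, so most of the genome should be shared and the remaining stretches of the H13 donor differ. Bread wheat is hexaploid, and 1 probe set often reads several homoeologous copies. Short oligonucleotide probes also lose signal where a line carries a different sequence, so a probe set that differs between lines can reflect transcript level or probe match, and these arrays do not tell them apart. In bulk sheath tissue, fewer cells of a type and less RNA per cell cannot be told apart either.

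The deposited values were MAS5 intensities on a linear scale, with no counts, so the number of arrays limits the precision. The trimmed mean was 500 on every array, the median signal ran from 78.6 to 101 and no pair of arrays held identical values. The array's 8 tag controls, sequences foreign to wheat, read 17.2 at the median and at most 85.02. Of 32 probe sets for photosynthesis genes, 10 lay above 85 in all 8 groups and 18 below it in all 8, while 9 of 11 for seed storage proteins lay below it everywhere; none of either list was among the 200. Newton 6 h replicate 3 stood apart from its group over the 79 probe sets higher in Molly, with a median log2 signal, relative to each probe set's mean over all arrays, of -0.47 against -1.02 and -0.84 on the other Newton 6 h arrays. Molly 24 h replicate 3 was the lowest of its group for the same probe sets, at 0.76 against 1.2 and 0.98. The rule took 194 of the 200 again without the first of these arrays and 191 without the second.

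Over the whole array 7989 probe sets, 13.1%, had the same sign in all 4 conditions, 5.07% higher in Molly and 7.99% higher in Newton. The smallest of the 4 log2 differences ran from 0.60 to 4.55 among the 200, with a median of 0.76, and was 1 or more in 46, 14 of them higher in Molly. The limit fell in a dense region. Just inside it lay Ta.2278.3.S1_x_at at 0.599 and Ta.28398.3.S1_a_at at 0.597, and just outside TaAffx.122764.1.S1_at and Ta.23069.1.S1_at, both at 0.595. The last of these belongs to the same ID cluster as 2 probe sets that were taken.

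The size of the difference between lines was larger in infested than in uninfested sheaths for most probe sets higher in Molly and for fewer of those higher in Newton. Line differences were also more common with larvae over the array. Of all 36669 tested probe sets, limma called a line difference (adjusted p under 0.05) in 3.4% uninfested. With larvae it called 30.9%, 30.8% and 24.6% at 6, 12 and 24 h. These shares count calls and not sizes, so whether the chosen probe sets differ from the array in this was not tested. Probe sets higher in Molly had a median absolute log2 difference of 0.78 without larvae and of 1.96, 1.78 and 1.80 at 6, 12 and 24 h. The smallest of the 4 differences was the uninfested one in 64 of those 79. Probe sets higher in Newton had medians of 1.01 uninfested and from 1.15 at 12 h to 1.38 at 6 h with larvae, and 53 of 121 were smallest uninfested. A range under 0.5 was seen in 9 of the 79 and in 33 of the 121. The dimmer line stayed at or above the floor of 85 in every condition for 62 of the 79 and 74 of the 121. Where it did not, the floor limits the size of the difference, and its part in the contrast between directions was not tested.

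**Figure D1:**
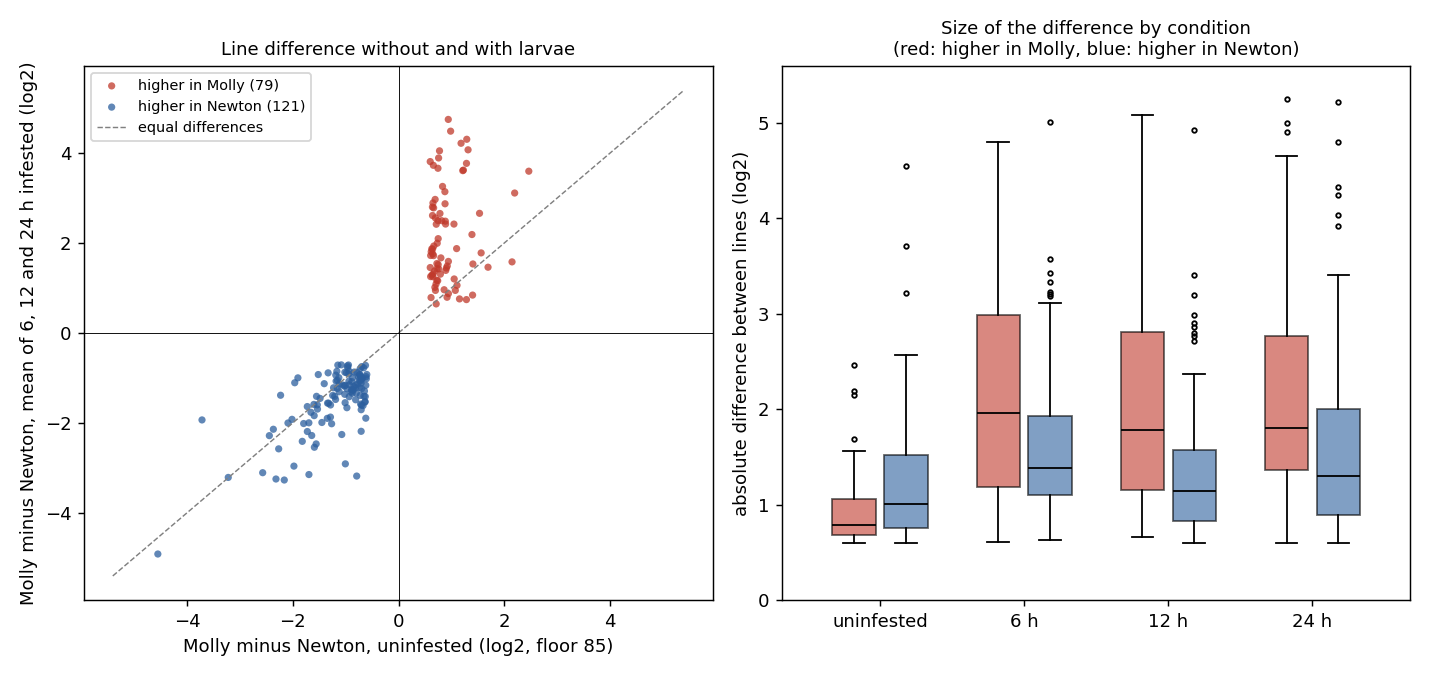
Left, the Molly minus Newton log2 difference of each of the 200 probe sets in uninfested sheaths (horizontal) against the mean difference over 6, 12 and 24 h infested (vertical), with a dashed line of equal differences. Right, boxes of the absolute log2 difference by condition (line, median; box, quartiles; whiskers to 1.5 times the box height). Most probe sets higher in Molly lie above the dashed line, with medians of 0.78 uninfested and 1.78 to 1.96 infested.

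Within each line the same shift appeared as values, which were not tested because the rule used them. For the 79 probe sets higher in Molly, the infested minus uninfested log2 difference in Molly had medians of 1.04, 0.83 and 0.57 at 6, 12 and 24 h, and in Newton of -0.08, 0.06 and -0.22. It was above 0 in Molly for 57, 62 and 54 of the 79 at the 3 times, and in Newton for 36, 40 and 31. For the 121 higher in Newton, the medians in Newton were 0.32, 0.35 and 0.14, and in Molly 0.00, 0.03 and -0.10. In Newton the change was above 0 for 81, 83 and 73 of the 121. In Molly it was above 0 for 50, 63 and 38 and below 0 for 60, 44 and 71. It was exactly 0 in Molly for 11, 14 and 12. All these changes use signals raised to the floor, so a change under the floor is not seen. The Molly median of 0.00 at 6 h is therefore not read as a lack of response. Infested and uninfested arrays separated in opposite directions in the lines for 9, 13 and 14 of the 200 at 6, 12 and 24 h, beside 3.52%, 4.65% and 3.74% of the array, and nothing is read from these counts.

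Replicates separated the lines unevenly. The 12 Molly arrays and the 12 Newton arrays did not overlap for 62 of the 200, 19 higher in Molly and 43 higher in Newton, against 0.314% of the array. Within each of the 4 conditions the groups did not overlap for 151 of the 200, against 1.34% of the array. The rule chose for both counts, so nothing is read from these shares. The median SD within groups was 0.34 on the log2 scale for the 200 and 0.20 for all tested probe sets. These SDs use signals raised to the floor. The smallest difference exceeded 2 times the probe set's own within-group SD in 131 of the 200. The rule ranked on that difference and no such count is given for the array, so nothing is read from it either.

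The probe set at the head of the rule was Ta.6210.1.S1_at, which read near background in Molly and brightly in Newton under every condition. Its signals in Molly were 56.3, 64.0 and 45.4 uninfested, 14.0, 67.5 and 97.4 at 6 h, 25.8, 42.0 and 35.5 at 12 h, and 40.4, 56.0 and 28.4 at 24 h. In Newton they were 2367, 2544 and 1307 uninfested, 2928, 2561 and 3145 at 6 h, 1593, 2816 and 3823 at 12 h, and 2249, 1998 and 2981 at 24 h. No Molly array came near any Newton array. Because Molly's geometric mean lay under 85 in each condition, the ratio to 85 gives a bound: Newton was at least 23.4-fold higher uninfested and at least 33.7-, 30.3- and 27.9-fold higher at 6, 12 and 24 h. The probe set was thus measured in Newton alone, and no mean response of both lines is given.

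Ta.12786.1.A1_at came next. Its 12 Molly arrays all lay under the tag controls' median of 17.2, the lowest at 4.34. Newton gave 679, 1275 and 571 uninfested, 1103, 577 and 1619 at 6 h, 2290, 41.3 and 1572 at 12 h, and 485, 560 and 1350 at 24 h. Newton 12 h replicate 2 was thus far under the other Newton arrays, though still above all Molly arrays. Newton was at least 9.30-fold higher uninfested and at least 11.9-, 6.23- and 8.42-fold higher at the later times.

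TaAffx.108612.1.S1_at read 102, 83.0 and 118 in uninfested Molly and 502, 1027 and 413 in uninfested Newton. With larvae the 9 Molly arrays lay between 42.7 and 104 and the 9 Newton arrays between 428 and 1630, so the lines did not overlap. Newton was 5.97-fold higher uninfested and at least 9.24-, 11.3- and 6.50-fold higher at 6, 12 and 24 h.

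Molly's geometric mean was under 85 in all 4 conditions for 19 probe sets, while Newton's was so for none of the 79 higher in Molly. The dimmer line was under 85 in 3 of the 4 conditions for 6 probe sets of each direction. Newton's geometric means for the 19 ran from 107.9 to 2867. Every Molly array was under 85 for 7 of the 19, the highest Molly array of the 19 was 120.6, and every Newton array was above 85 for 14. Among all 200, the dimmer line stayed at or above 85 in every condition for 136. All 24 arrays exceeded 85 for 110 of the 200, or 55.0%, against 38.95% of the array.

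**Figure D2:**
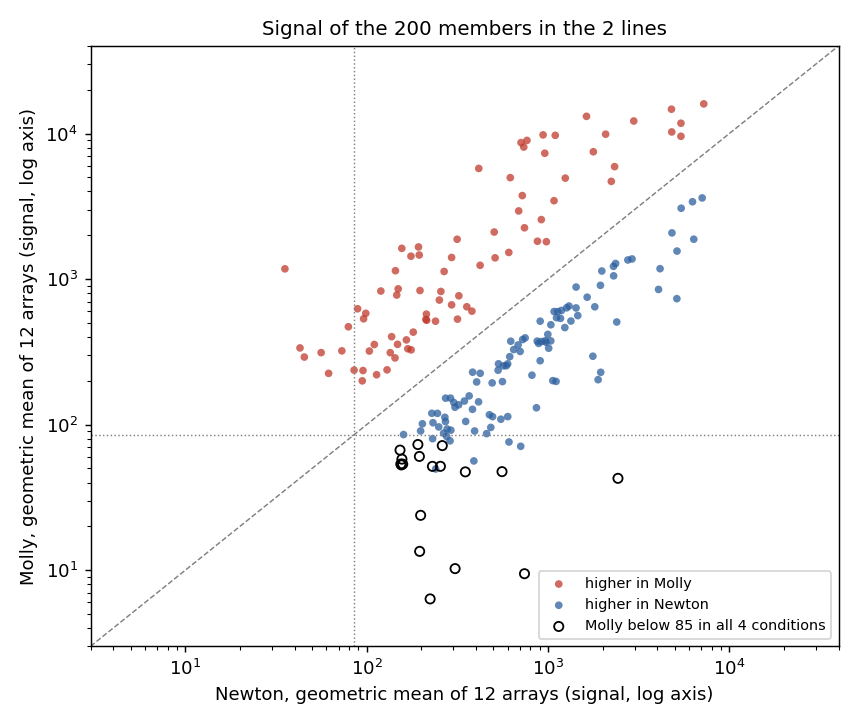
Geometric mean signal over the 12 Newton arrays (horizontal) and the 12 Molly arrays (vertical) for each of the 200 probe sets, both on log axes in MAS5 units, with dotted lines at 85 and a dashed line of equal signal. The 19 open circles are probe sets with Molly under 85 in all 4 conditions. Over its 12 arrays Newton lies under 85 for 7 of the probe sets higher in Molly, and Molly for 26 of those higher in Newton.

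The remaining leaders in this direction read above 85 in uninfested Molly as well. Ta.26999.1.S1_x_at read 277, 221 and 133 in uninfested Molly and 1027, 999 and 879 in uninfested Newton. At 6 h it read 52.2, 34.5 and 24.5 in Molly and 529, 277 and 655 in Newton, at 12 h 39.4, 71.4 and 75.7 against 481, 510 and 304, and at 24 h 64.1, 68.0 and 112 against 756, 614 and 874. The lines never overlapped within a condition. The mean of both lines fell at 6, 12 and 24 h (limma, adjusted p = 1.11e-05, 0.000124 and 0.00928). The size of the fall at 6 h rests on Molly signals under 85: it was 1.79 ± 0.25 (SE) on the log2 scale as deposited and 1.16 with signals raised to 85.

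Ta.7406.2.S1_x_at and Ta.7406.2.S1_at, of 1 ID cluster, were both higher in Newton. The first read 375, 239 and 153 in uninfested Molly and 1456, 1186 and 709 in uninfested Newton. At 6 h it read 292, 262 and 194 against 2320, 1620 and 4010, at 12 h 406, 883 and 734 against 3212, 3319 and 2563, and at 24 h 125, 71.9 and 42.9 against 1602, 1388 and 2749. Newton was 4.47-, 10.1- and 4.70-fold higher in the first 3 conditions and at least 21.5-fold higher at 24 h. Over both lines it rose by 1.46 ± 0.29 at 12 h on the log2 scale (SE, limma, adjusted p = 0.00057). The second probe set, chosen after its values were seen, rose by 1.6 ± 0.29 at 12 h (SE, limma, adjusted p = 0.000225).

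The leaders higher in Molly shared no single course. Ta.28847.1.S1_a_at read 1703, 1819 and 1775 in uninfested Molly and 353, 277 and 336 in uninfested Newton, a ratio of 5.51. With larvae Molly read 992, 2079 and 897 at 6 h, 850, 741 and 500 at 12 h, and 1170, 1539 and 1215 at 24 h. Newton read 30.8, 60.3 and 32.9, then 37.3, 25.8 and 3.47, then 11.5, 10.8 and 4.63. The Newton signal was thus measured without larvae and lay under 85 on all 9 infested arrays, and Molly was at least 14.4-, 8.0- and 15.3-fold higher at the 3 times. The mean of both lines fell at the 3 times (limma, adjusted p = 0.00164, 2.26e-05 and 1.74e-05), by sizes that rest on Newton signals under 85. They were 1.77, 2.9 and 2.85 on the log2 scale as deposited (SE 0.41) and 1.22, 1.64 and 1.18 with signals raised to 85.

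Ta.28847.3.S1_x_at, of the same ID cluster, followed the same course at a lower signal. It read 545, 507 and 497 in uninfested Molly and 165, 156 and 207 in uninfested Newton, a ratio of 2.95. Every infested Molly array lay between 188 and 504 and every infested Newton array between 7.25 and 70.5. Molly was at least 3.42-, 2.59- and 4.57-fold higher at 6, 12 and 24 h.

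Ta.28550.1.S1_at also had lower geometric means with larvae in both lines, though at 24 h Molly overlapped its uninfested arrays. It read 2497, 2899 and 2587 in uninfested Molly and 577, 556 and 608 in uninfested Newton. At 6 h the values were 1479, 1807 and 1246 against 180, 336 and 173, at 12 h 647, 566 and 527 against 129, 85.5 and 166, and at 24 h 1265, 2991 and 2120 against 135, 88.0 and 67.8. The lines did not overlap in any condition, and the ratio was 4.58 uninfested, 6.83 at 6 h, 4.72 at 12 h and 21.5 at 24 h. The mean of both lines fell by 1.12 ± 0.21, 2.22 ± 0.21 and 1.52 ± 0.21 on the log2 scale (SE, limma, adjusted p = 0.00027, 4.63e-07 and 1.23e-05). With signals raised to 85, the fall at 24 h was made up of -0.41 in Molly and -2.53 in Newton.

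TaAffx.38460.1.S1_s_at went the other way. It read 686, 816 and 384 in uninfested Molly and 137, 542 and 161 in uninfested Newton, which overlapped. At 6 h it read 8696, 7547 and 8966 against 1708, 972 and 4659, at 12 h 13546, 6004 and 11773 against 881, 4267 and 873, and at 24 h 9526, 15402 and 11868 against 2739, 3379 and 4943. Infested Molly arrays lay above infested Newton arrays at each time. Its mean over both lines rose by 3.46 ± 0.42, 3.37 ± 0.42 and 4.15 ± 0.42 on the log2 scale (SE, limma, adjusted p = 2.39e-06, 6.53e-06 and 3.14e-07), the largest rise at 24 h among the 198 of the 200 that were tested.

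Ta.27798.1.S1_s_at read 3934, 3037 and 3293 in uninfested Molly and 821, 1118 and 1774 in uninfested Newton. The values were 6358, 7192 and 4044 against 1232, 863 and 2743 at 6 h, 4159, 4274 and 3986 against 261, 576 and 1580 at 12 h, and 3057, 2874 and 1699 against 221, 190 and 420 at 24 h. Molly stood above Newton on every array of each condition, with ratios of 2.89, 3.99, 6.68 and 9.46. The mean of both lines fell by 1.83 ± 0.34 from 6 to 24 h on the log2 scale (SE, limma, adjusted p = 0.00378).

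**Figure D3:**
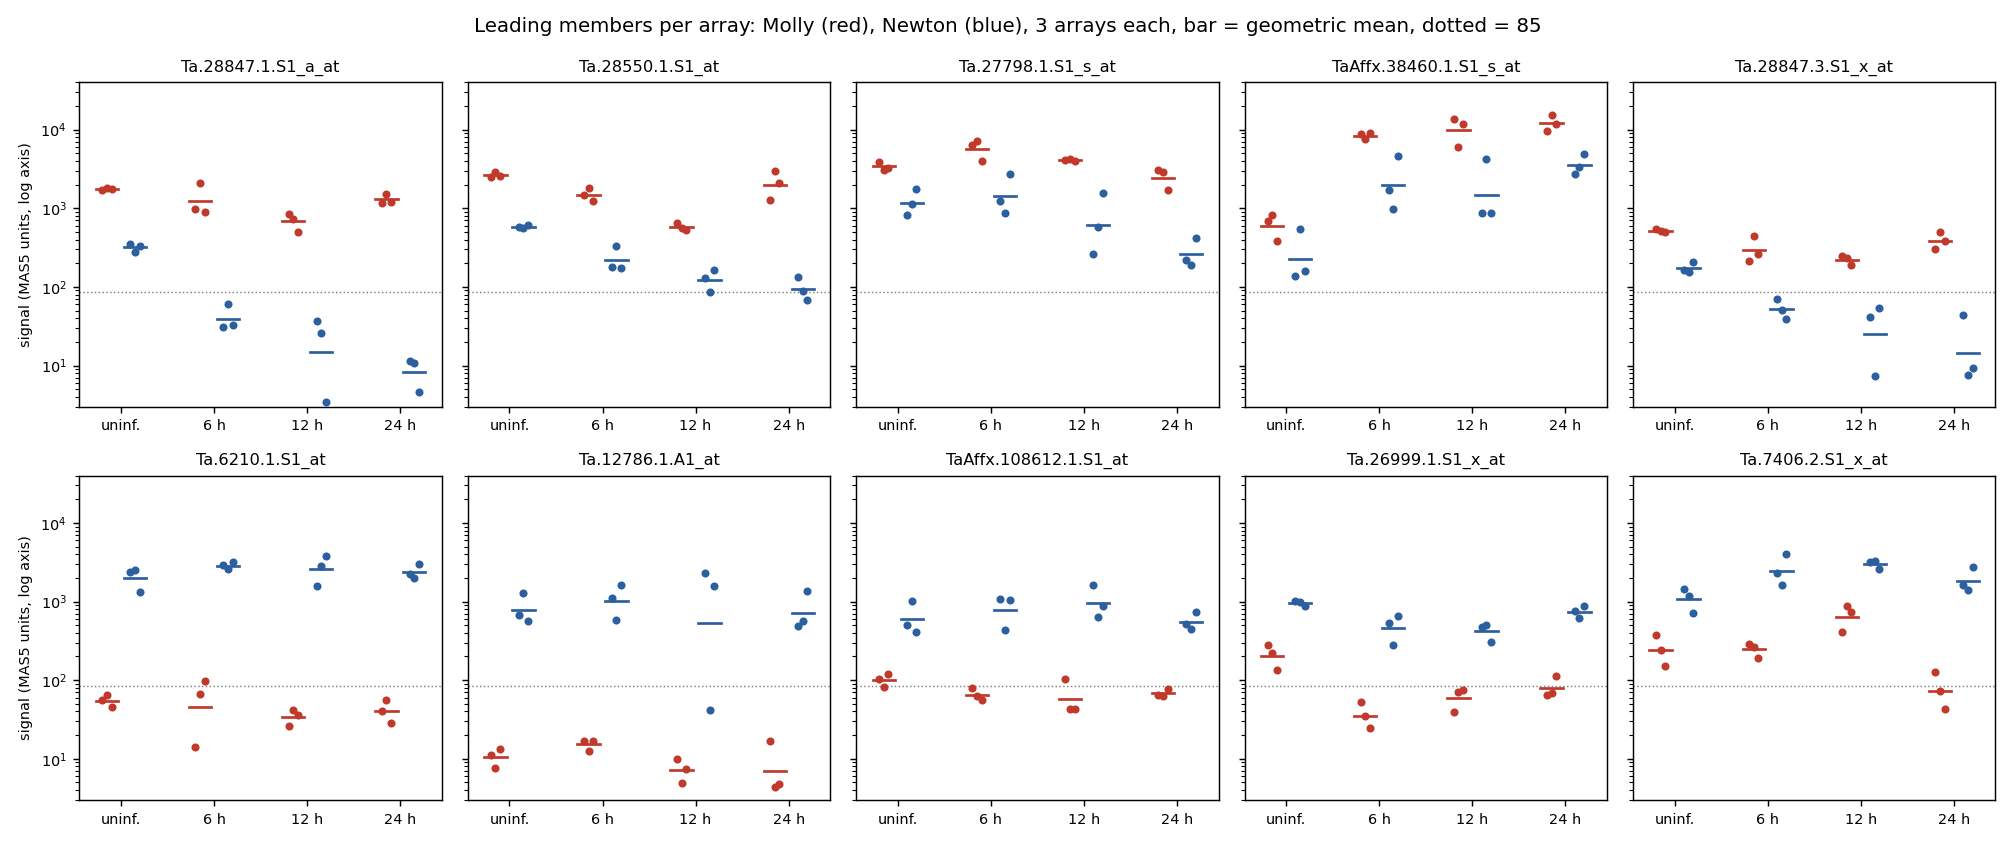
Signal on each array (MAS5 units, log axis) for the 5 leading probe sets higher in Molly (upper row) and the 5 higher in Newton (lower row), in uninfested sheaths and at 6, 12 and 24 h. Points are arrays, 3 per line and condition, bars are geometric means and the dotted line marks 85. In the lower row Ta.6210.1.S1_at and Ta.12786.1.A1_at keep Molly's geometric mean under the dotted line in every condition.

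A few differences were alike in all 4 conditions, and the 4 with the smallest range are named here after their values were seen. Ta.238.1.S1_at, which the array annotation pairs with the gene LOC542837, had the smallest range of all 200, 0.10. It read 570, 603 and 614 in uninfested Molly and 346, 403 and 345 in uninfested Newton. At 6 h the values were 539, 490 and 552 against 236, 393 and 441, at 12 h 536, 613 and 784 against 406, 404 and 364, and at 24 h 551, 735 and 707 against 415, 495 and 381. Molly was higher without overlap each time, by 1.64-, 1.53-, 1.63- and 1.54-fold. No mean change with larvae passed the test, with log2 changes of -0.13, 0.10 and 0.19 (SE 0.13, limma, adjusted p = 0.478, 0.594 and 0.282). The rule did not take it again in 13 of 29 other settings.

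The other 3 of the 4 were higher in Newton. Ta.13932.1.A1_x_at was measured above 85 on all arrays, with uninfested signals of 709, 822 and 873 in Molly and 1269, 1343 and 1093 in Newton, and ratios of 1.54, 1.6, 1.69 and 1.66. Ta.12405.1.A1_at was dimmer, with uninfested signals of 47.2, 75.5 and 65.2 against 182, 179 and 131, and Newton at least 1.91-, 1.74-, 1.81- and 1.91-fold higher. Ta.15901.1.S1_at had a Molly signal close to 85, with 98.4, 97.5 and 81.2 against 129, 134 and 212 in uninfested sheaths. These 3 differences were small and 2 of them lay at the edge of what the array measured. A similar pair was Ta.23069.2.S1_x_at, chosen after its values were seen, and its cluster partner Ta.23069.1.S1_at just outside the limit. The former read 548, 631 and 548 in uninfested Molly and 1225, 1234 and 888 in Newton, with ratios of 1.92, 2.00, 1.82 and 1.83. The latter had uninfested signals of 4014, 3936 and 3932 against 7075, 6678 and 6506.

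At the other end stood probe sets taken on a small uninfested difference and a large infested one. Ta.2278.3.S1_x_at read 280, 778 and 904 in uninfested Molly and 406, 676 and 207 in uninfested Newton, which overlapped. With larvae Molly read 11805, 9439 and 11204 at 6 h, 12512, 8914 and 9518 at 12 h and 12035, 9163 and 8030 at 24 h, while the 9 Newton arrays lay between 436 and 1410. Molly's ratio to Newton was 1.51 uninfested and 12.2, 15.1 and 15 at the 3 times. Ta.14545.1.S1_at was alike, with 1091, 409 and 512 in uninfested Molly against 170, 530 and 359 in Newton, again with overlap. It read 16707, 18002 and 15363 against 164, 428 and 3006 at 6 h, 16051, 17462 and 15155 against 407, 633 and 419 at 12 h, and 10444, 6565 and 4335 against 223, 236 and 675 at 24 h. Newton 6 h replicate 3 was the high Newton array, as it was over the whole set higher in Molly, and the part of that array in these differences was not tested. For both probe sets the word constant covers only the sign of the group means.

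The array annotation paired 9 of the 200 probe sets with 7 genes, all of them higher in Molly. It gives those genes a locus identifier and no descriptive name, so no role is stated for them, and 191 of the 200 have no gene. LOC606359 was read by 3 of the 9, which share an ID cluster and so are not independent. On Ta.7388.1.S1_at it read 3653, 3176 and 3724 in uninfested Molly and 1281, 1742 and 1258 in uninfested Newton. At 6 h it read 14484, 17359 and 15451 against 929, 947 and 2578, at 12 h 15494, 15707 and 14011 against 1152, 784 and 976, and at 24 h 14277, 11992 and 7923 against 457, 378 and 489. Molly was 2.49-, 12.0-, 15.7- and 25.2-fold higher, and the lines never overlapped. On Ta.7388.2.S1_x_at the ratios were 2.44, 10.2, 12.6 and 19.8, and on Ta.7388.2.S1_a_at 2.32, 7.98, 11.2 and 20.2.

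LOC542941 was higher with larvae in both lines. Ta.13334.1.A1_at read 1837, 1217 and 1461 in uninfested Molly and 918, 916 and 572 in uninfested Newton, 7811, 8890 and 7469 against 3185, 1887 and 7607 at 6 h, 11930, 8990 and 11673 against 1612, 6003 and 1119 at 12 h, and 6647, 13010 and 10205 against 3480, 4993 and 6187 at 24 h. At 6 h Newton replicate 3 reached the Molly arrays, and Molly's geometric mean was 2.25-fold Newton's. Its mean over both lines rose by 2.31 ± 0.33, 2.18 ± 0.33 and 2.65 ± 0.33 on the log2 scale (SE, limma, adjusted p = 1.80e-05, 5.29e-05 and 4.68e-06).

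LOC543409, read by Ta.10688.1.S1_at, gave 1170, 797 and 1241 in uninfested Molly and 466, 629 and 774 in uninfested Newton. At 6 h it gave 763, 809 and 546 against 29.7, 111 and 117, at 12 h 1374, 1717 and 1592 against 242, 125 and 263, and at 24 h 737, 402 and 359 against 136, 17.8 and 72.3. The lines did not overlap, and Molly was 1.72-fold higher uninfested, at least 8.19-fold at 6 h, 7.78-fold at 12 h and at least 5.58-fold at 24 h. Over both lines it fell by 1.83 ± 0.39 at 6 h and by 2.30 ± 0.39 at 24 h on the log2 scale (SE, limma, adjusted p = 0.000855 and 0.000109), while the value at 12 h was -0.52 ± 0.39 (adjusted p = 0.328). The sizes at 6 and 24 h rest in part on Newton signals under 85. With signals raised to 85 the falls were 1.58 and 1.88.

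LOC778386, read by Ta.7151.2.S1_at, lay between 353 and 732 on the 12 Molly arrays and between 198 and 331 on the 12 Newton arrays, with ratios of 1.57, 2.51, 2.48 and 2.17. LOC778380, read by Ta.27859.1.A1_at, lay between 126 and 165 in uninfested Molly and between 57.1 and 106 in uninfested Newton, and between 282 and 622 against 72.2 and 178 with larvae. A second probe set of that gene, TaAffx.24208.1.S1_at, stayed between 5.83 and 31.9 on all arrays and measured nothing. LOC542773 was bright in both lines: Ta.2789.1.S1_a_at read 11266, 9161 and 10510 in uninfested Molly against 5964, 7372 and 6985 in Newton, with ratios of 1.52, 2.33, 2.01 and 2.88. Its second probe set, Ta.2789.1.S1_at, was not among the 200, with ratios of 1.3, 2.11, 1.75 and 2.70 in the same order. Over both lines Ta.2789.1.S1_a_at fell by 0.75 ± 0.11 at 12 h on the log2 scale (SE, limma, adjusted p = 4.97e-05).

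**Figure D4:**
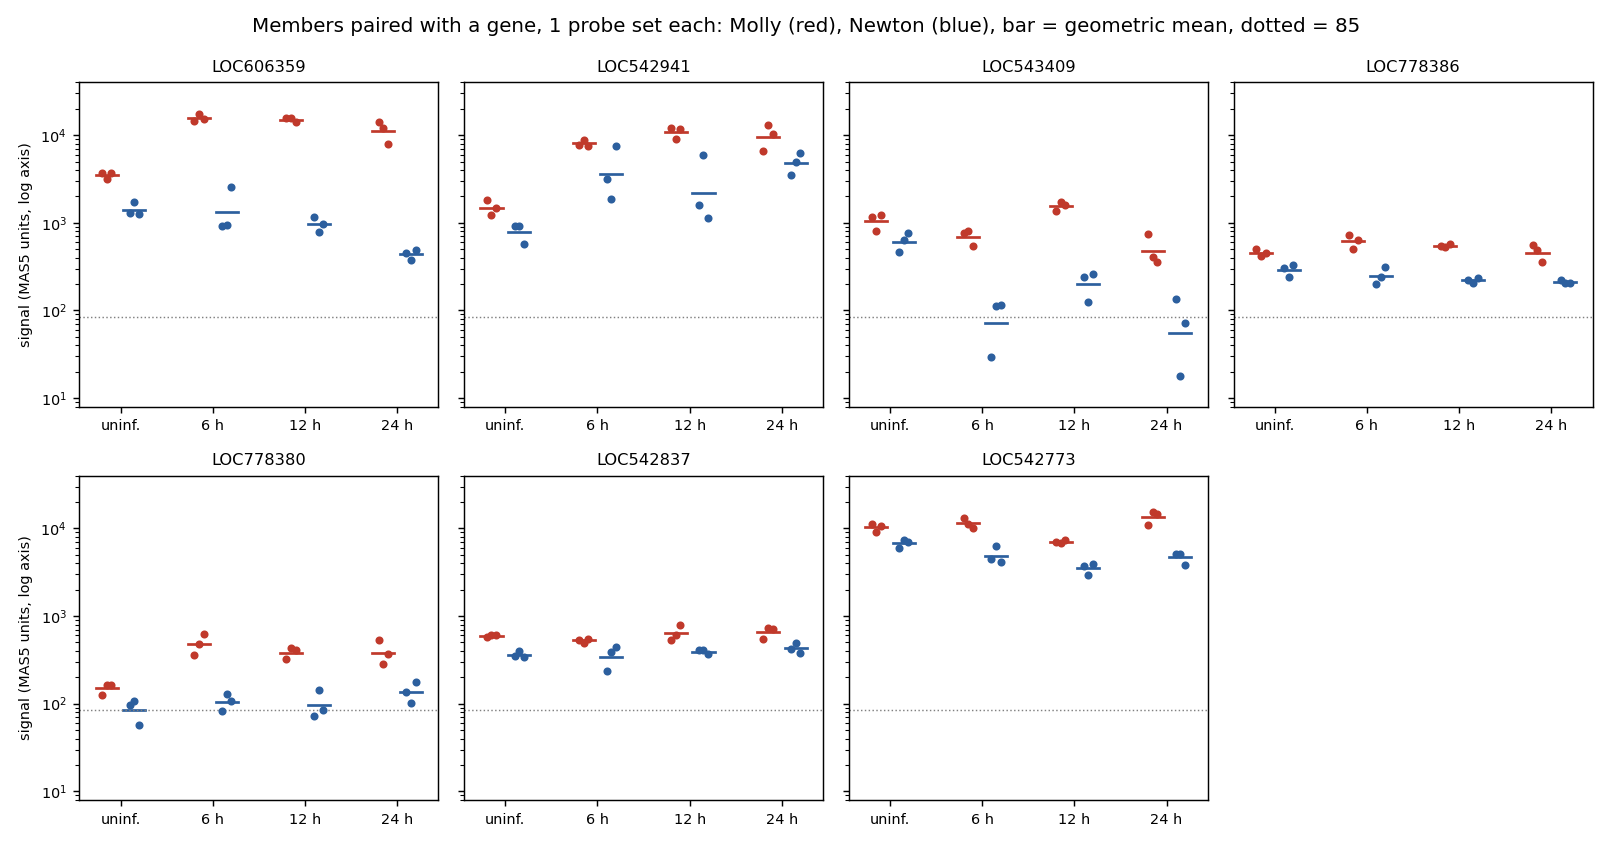
Signal on each array (MAS5 units, log axis) for the 7 genes that the array annotation pairs with probe sets of the 200, 1 probe set each, in uninfested sheaths and at 6, 12 and 24 h. Points are arrays, 3 per line and condition, bars are geometric means and the dotted line marks 85. LOC606359 opens from a ratio of 2.49 uninfested to 25.2 at 24 h, while LOC542837 keeps ratios of 1.53 to 1.64.

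The brightest of the 200, by the mean in the brighter line, were Ta.7388.2.S1_a_at of LOC606359, Ta.2789.2.S1_at and Ta.2632.3.S1_x_at, all higher in Molly. Ta.2789.2.S1_at read 17224, 14742 and 17855 in uninfested Molly and 10156, 10809 and 10618 in uninfested Newton, and its ratio was 1.57 uninfested and 2.27, 2.37 and 2.83 with larvae. It shares an ID cluster with Ta.2789.1.S1_a_at of LOC542773, so these probe sets are not independent. Ta.2632.3.S1_x_at read 9139, 8462 and 8320 against 5635, 5091 and 5599 uninfested, and 20914, 22403 and 18917 against 3985, 4078 and 8490 at 6 h. Its ratio was 1.59 uninfested and 4.0, 3.01 and 4.62 with larvae. In uninfested sheaths the lines did not overlap on either probe set.

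The probe set IDs carried some information of their own. The 200 fell into 172 ID clusters, the groups of related transcript sequences behind the array's design, and 22 clusters gave more than 1 of the 200, 50 probe sets in all. No cluster held both directions, but probe sets of 1 cluster read related sequences and are not independent. In 65 of the clusters another 114 probe sets were on the array: 54 had the same sign in all 4 conditions in the same direction, 3 had it in the opposite direction, 32 lay under 85 in all 8 groups and 25 had no constant sign though above 85 somewhere. Over the array 13.1% had the same sign in all 4 conditions and 42.979% lay under 85 in all 8 groups. Probe sets ending in _x_at, which may cross-hybridise to other sequences, made up 15.5% of the 200 and 11.064% of the array. Those ending in _a_at, designed to read several transcripts of 1 gene, made up 10.0% and 5.428%, so for these the copies read cannot be told apart.

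The mean response of both lines to larvae was tested for each probe set with limma across 36669 probe sets, of which 198 were among the 200. The rule ranked differences between the lines and not this mean, but both come from the same 8 group means, and a change in 1 line alone moves both. The shares below are therefore a description of probe sets chosen on those means, and nothing is read from their distance to the shares of all tested. At 6 h 58 of the 198 rose and 31 fell, which is 29.3% and 15.7%, against 19.0% and 17.5% of all tested probe sets. At 12 h 70 rose and 31 fell, or 35.4% and 15.7% against 17.9% and 15.6%. At 24 h 45 rose and 53 fell, or 22.7% and 26.8% against 17.4% and 16.1%. The median log2 responses were 0.18, 0.23 and -0.06, beside 0.04, 0.02 and 0.02 for all tested. The 3 responses share the 6 uninfested arrays. Of the 198, 52 passed the test at none of the 3 times, or 26.3% against 47.7% of all tested, and 53 passed at all 3, or 26.8% against 17.8% of all tested. Of the 53, 33 were always up and 17 always down, beside 9.33% and 8.18% of all tested.

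Split by direction, the difference between the shares was not tested. Of the 79 higher in Molly, 34, 33 and 26 rose and 12, 15 and 21 fell at 6, 12 and 24 h. Of the 119 tested that were higher in Newton, 24, 37 and 19 rose and 19, 16 and 32 fell. Without Newton 6 h replicate 3 the counts at 6 h were 53 risen and 30 fallen.

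From 6 to 24 h in infested sheaths, a comparison free of the uninfested arrays, 5 of the 198 rose and 41 fell, or 2.53% and 20.7%, against 2.80% and 2.81% of all tested, 5.61% in either direction. The median change was -0.24 on the log2 scale beside -0.01 for all tested. Falls came from both directions, 17 of 79 higher in Molly and 24 of 119 higher in Newton. The count of rises was 1 without Molly 24 h replicate 3 or Newton 24 h replicate 3, 2 without Molly 6 h replicate 1 or 3, 3 without Newton 6 h replicate 1 or 2 or Newton 24 h replicate 1 or 2, and 8 without Newton 12 h replicate 3. The number of falls was 26 without Newton 24 h replicate 2, 29 without Molly 24 h replicate 3 and 30 without Newton 6 h replicate 3.

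**Figure D5:**
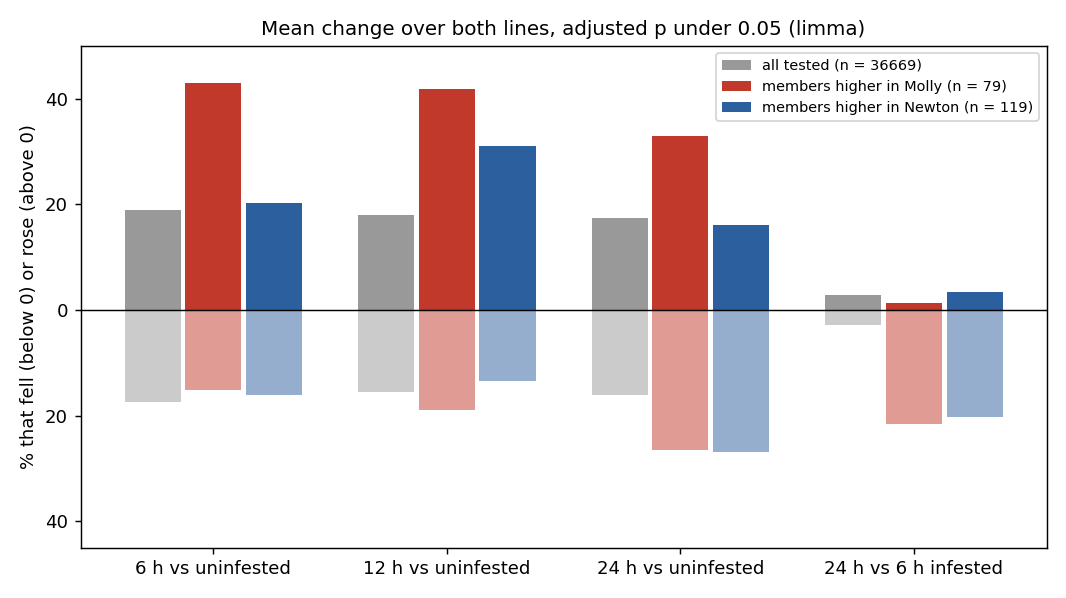
Percent of probe sets that rose (above 0) or fell (below 0) in the mean of both lines, with limma and an adjusted p under 0.05, for 3 infested times against uninfested and for 24 h against 6 h infested. Grey bars are all 36669 tested probe sets, red bars the 79 higher in Molly and blue bars the 119 tested that were higher in Newton. At 24 h against 6 h 17 of the 79 and 24 of the 119 fell, or 21.5% and 20.2%, beside 2.81% of all tested. That change also holds plant age and time of day. The red and blue sets were chosen on the same group means, so nothing is read from their distance to the grey bars.

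Among probe sets whose 8 group geometric means were all above 85, though single arrays could lie under it, Ta.14545.1.S1_at and TaAffx.38460.1.S1_s_at had the largest rises of the mean at 6 h. The former rose by 2.84 ± 0.48 on the log2 scale (SE, limma, adjusted p = 0.000106), made up of 4.77 in Molly and 0.90 in Newton. The Newton part rests on replicate 3 at 6 h, which read 3006 beside 164 and 428, against 170, 530 and 359 uninfested. At 12 h TaAffx.499.1.A1_at, higher in Newton, rose by 3.0 ± 0.30 (SE, limma, adjusted p = 6.66e-07). It read 99.7, 110 and 71.2 in uninfested Molly and 194, 324 and 120 in uninfested Newton, and at 12 h 315, 551 and 627 against 2617, 2602 and 2117. Both lines were higher with larvae at 12 h, and Newton more so. At 24 h Molly read 162, 92.8 and 66.8, which overlapped its uninfested arrays, while Newton read 1301, 1358 and 2526. At 24 h Ta.22338.2.S1_a_at, higher in Molly, rose by 3.11 ± 0.28 (SE, limma, adjusted p = 6.99e-08), from 148, 119 and 205 in Molly and 82.6, 129 and 91.6 in Newton to 2561, 1340 and 1835 and to 562, 490 and 839.

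The falls included probe sets of both directions. Ta.20972.1.S1_at, higher in Newton, fell by 1.34 ± 0.17 at 6 h on the log2 scale (SE, limma, adjusted p = 4.42e-06), from 361, 554 and 559 to 225, 130 and 146 in Molly and from 1148, 1244 and 867 to 482, 540 and 464 in Newton. Ta.23042.2.S1_at, higher in Molly, fell by 1.21 ± 0.21 at 6 h (SE, limma, adjusted p = 0.000102), with Molly at 903, 870 and 1247 and then 826, 600 and 590, and Newton at 475, 636 and 516 and then 132, 230 and 111. Both lines were lower at 6 h in each case. Ta.20175.1.A1_at, higher in Newton, fell by 1.97 ± 0.19 at 24 h (SE, limma, adjusted p = 1.73e-07), from 804, 795 and 594 to 143, 185 and 214 in Molly and from 2514, 2346 and 1402 to 597, 372 and 693 in Newton. Its ratio stayed between 2.04 and 3.36 while both lines moved.

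Ta.14568.1.S1_at, higher in Molly, fell most at 24 h, by 2.88 ± 0.33 on the log2 scale (SE, limma, adjusted p = 1.55e-06). It read 10881, 9008 and 8590 in uninfested Molly and 3631, 3898 and 5091 in uninfested Newton. At 6 h it read 9807, 14223 and 10798 against 1038, 1234 and 1009, at 12 h 8353, 8778 and 7356 against 552, 155 and 914, and at 24 h 7131, 6576 and 2398 against 276, 109 and 113. Newton was low at every infested time, and the ratio widened from 2.27 to 10.5, 19.0 and 32. The fall at 24 h was made up of -0.97 in Molly and -4.79 in Newton. From 6 to 24 h the mean of both lines fell by 2.05 ± 0.33 (SE, limma, adjusted p = 0.00131).

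Of the 5 rises from 6 to 24 h, 2 are given here, chosen after their values were seen. Ta.28273.1.S1_x_at, higher in Newton, rose by 0.83 ± 0.18 on the log2 scale (SE, limma, adjusted p = 0.00875). It read 634, 568 and 524 in uninfested Molly and 944, 1213 and 851 in uninfested Newton, 207, 237 and 181 against 1439, 1259 and 2795 at 6 h, 143, 207 and 223 against 1918, 1861 and 1437 at 12 h, and 298, 335 and 393 against 3592, 2406 and 4253 at 24 h. At each time every Molly array was lower and every Newton array higher than the uninfested arrays of its line. Ta.3059.1.S1_at, higher in Molly, rose by 0.84 ± 0.24 (SE, limma, adjusted p = 0.0437), and this call was lost without Molly 6 h replicate 1 (adjusted p = 0.105) and in 17 other settings.

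The 13 gene lists held 80 genes with a descriptive name, read by 167 probe sets of which 106 were tested. None was among the 200, which was fixed in advance: 191 of the 200 have no gene and the 7 annotated genes have no such name. Nothing is read from that absence. Of the 167, 5 had the same sign in all 4 conditions higher in Molly and 11 higher in Newton, beside 5.07% and 7.99% of the array. In uninfested sheaths 0 of the 106 were higher in Molly and 3 in Newton by limma, beside 1.37% and 2.03% of all tested, 3.40% in either direction. At 6 h 16 and 31 were, beside 13.4% and 17.5%, at 12 h 20 and 9, beside 13.4% and 17.5%, and at 24 h 32 and 13, beside 11.7% and 13.0%. The histone and chromatin list turned with time: 17 of its 20 tested probe sets were higher in Newton at 6 h and 19 were higher in Molly at 24 h. XIP-I, a xylanase inhibitor protein, illustrates a line difference outside the rule. On Ta.1200.1.S1_x_at it read 234, 363 and 190 in uninfested Molly and 535, 1081 and 488 in uninfested Newton, and 6079, 8011 and 8567 against 586, 486 and 2218 at 6 h, so Newton had the higher group mean without larvae (log2 difference -1.38, adjusted p = 0.16, limma) and Molly with them (3.12, adjusted p = 0.000122).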

How the data were processed

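Total RNA of wheat leaf sheaths was read on 24 Affymetrix wheat arrays, 3 in each of 8 groups taken from the labels. The deposited values are intensities per probe set on a linear scale that the authors made with MAS5, per the submitters' processing notes; the MAS5 version is not given in the sources used here. On every array the trimmed mean between the percentiles 2 and 98 was 500, so the deposited scaling was kept.

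From these values, 111 control probe sets were set aside and the rule was applied to 61179 with a floor of 85. The rule as given kept 64 reporter controls in view and took none of them; they were left out of the fit. The 200 probe sets and the gene lists were chosen with earlier results of these data known, so no pattern of line differences is independent support. The exact symbols of the lists were set after values of the 200 had been seen. The mean response of both lines, which comes from the same group means but was not what the rule ranked, was fitted on log2 intensity by limma 3.58.1 (R 4.3.3): 1 mean for each group, a variance prior that followed intensity and 16 residual degrees of freedom. Dropping the dimmest 40% of probe sets, those with a mean signal under 44.9, kept 36669 for testing, 198 of the 200 among them. The two-sided p-values were adjusted by Benjamini-Hochberg per comparison and called at 0.05; "rose" and "fell" are used of results past it. The script was tested on simulated data. Where a group's geometric mean was under 85, the fold is the other group over 85, given as "at least".

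Probe sets are named by this rule: all with an annotated gene, the 5 with the highest smallest difference per direction, 2 on each side of the limit, up to 2 per direction with the largest tested response among those above 85 in both lines, the 3 brightest, and 1 for each gene list, of which XIP-I is given. Others are marked as chosen after their values were seen. Of the probe sets, 1273 have a single gene (771 different genes) in the supplied array annotation. No genome build, coordinate or sequence was used here. The alternatives tried were the floor, the group median, centring, quantile normalization, the filter, the variance prior, the replicate block and leaving out each array.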

Additional observations from a re-analysis of the deposited data

Results flagged for a closer look

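Some named probe sets moved in opposite directions in the lines after infestation, with all arrays of each line on opposite sides of its uninfested arrays. The rule used these differences between the lines, so they were not tested; the values are infested minus uninfested log2 differences. Over the 200 probe sets 9, 13 and 14 did so at 6, 12 and 24 h, beside 3.52%, 4.65% and 3.74% of the array.

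LOC606359 did so on all 3 of its probe sets, which share an ID cluster. Ta.7388.1.S1_at gave 2.10 in Molly and -0.56 in Newton at 12 h, and 1.66 and -1.69 at 24 h. Ta.7388.2.S1_a_at gave 1.73 and -0.54 at 12 h, and 1.33 and -1.79 at 24 h. Ta.7388.2.S1_x_at gave 1.47 in Molly and -1.55 in Newton at 24 h. LOC543409, on Ta.10688.1.S1_at, gave 0.57 in Molly and -1.61 in Newton at 12 h. LOC778386, on Ta.7151.2.S1_at, gave 0.27 and -0.39 at 12 h. Ta.2632.3.S1_x_at gave 0.49 and -1.05 at 24 h.

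Ta.28273.1.S1_x_at, higher in Newton, ran the other way at every time: -1.47 in Molly and 0.79 in Newton at 6 h, -1.61 and 0.80 at 12 h, and -0.75 and 1.75 at 24 h.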

How the results depend on the processing

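The rule took 169 to 198 of the 200 again when 1 array was left out, with 75 to 92 higher in Molly among the 200 then taken; it took 136 with a floor of 32, 141 with a floor of 170, 161 with group medians, 186 with arrays centred on their median and 188 after quantile normalization. In all 29 of these settings 69 of the 200 were taken, 21 of them higher in Molly. The mean responses were steadier than the change from 6 to 24 h. With 1 array left out, the rises and falls among the 198 were 50 to 61 and 27 to 34 at 6 h, 66 to 72 and 28 to 32 at 12 h, and 40 to 46 and 48 to 54 at 24 h. From 6 to 24 h rises ran from 1 to 8 and falls from 26 to 45, while all tested probe sets called ran from 1074 to 2869; without the filter on dim probe sets 2 rose, where more probe sets were tested.

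Replicate numbers did not pair the arrays: deviations of arrays with the same number had a median correlation of -0.01, and 3 of 24 arrays correlated best with their own number. With the replicate number as a block, 57 rose and 29 fell at 6 h, 70 and 30 at 12 h, 45 and 51 at 24 h, and 4 and 37 from 6 to 24 h. Of 82 called comparisons of single named probe sets, 70 kept the call in every alternative run and 12 lost it in at least 1; none changed direction. The 3 arrays per group and signals near 85 limit what can be measured.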
